A study of Mus musculus with 2 samples.

Results

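Interferon-stimulated genes were measured in mouse brain in 2 sections taken at different times after CCI, or controlled cortical impact, an experimental head injury made by driving a rigid tip into the bared cortex. The gene set is a list of 38 symbols, of which 37 had a row among the 19070 genes of the tables. Mx2 was the listed symbol without a row. All 37 genes had at least 20 UMIs, counted molecules, in every comparison of injured with uninjured-side tissue given here, so none was lost to a filter on low counts.

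One coronal section came from a C57Bl6 male 3 days after CCI and another from a C57Bl6 male 28 days after CCI, both given as 3 months old. Both mice had been through anaesthesia, removal of a bone flap and impact on 1 side, and no section from a sham-operated or untouched mouse was analysed here, so the tissue across the midline of the same section served as reference. Fixed, paraffin-embedded tissue was read with a probe panel on a Visium HD array, which assigns UMIs to square bins of 16 µm that can hold parts of several cells. With 1 section for each time there is no replicate error, no test between times was possible, and animal, section plane and time cannot be told apart.

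Interferons are secreted by cells that sense foreign or misplaced nucleic acid. Type I interferons signal through their receptor and its kinases to a complex that holds Stat2 and Irf9, which enters the nucleus and switches on a large set of genes with antiviral, antigen-presenting and growth-restraining roles. In the brain this programme is known from infection, ageing and degeneration, where microglia, astrocytes, vascular cells and cells of the brain's coverings can all express it.

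The 3-day section held 119617 bins after bins under 100 UMIs were left out, with a median of 836 UMIs over all its bins, and the 28-day section held 103316, with a median of 596. The 37 genes together gave 55832 and 33808 UMIs. They are sparse: 27.0% of bins held a UMI of any of them at 3 days and 22.1% at 28 days. Irgm1, an immunity-related GTPase, gave the most UMIs over both sections, 8433 or 9.44% of the total. It was followed by Stat2 with 8180, Lgals3bp with 7621, Ifit3 with 5223 and Herc6 with 5175. The genes were therefore summed over areas and expressed as CPM, the usual scaling of counts to a fixed library size, with the area's own total UMIs as the library. Intervals in brackets are 95% intervals of the log2 ratio that cover counting error only. The array position names of the sections overlapped at 84781 positions because the array layout is the same, and each section was counted on its own. In bins of mixed tissue, fewer cells of a type and less RNA per cell cannot be told apart.

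On the injured side the summed level of the 37 genes was 822 CPM at 3 days against 299 CPM on the opposite side, a log2 ratio of 1.46 (1.43 to 1.48). In the 28-day section the sums were 571 and 277 CPM, which gives 1.05 (1.01 to 1.08). Every gene was higher on the injured side at 3 days, with an interval above 0 for all 37, and 35 of 37 had an interval above 0 at 28 days. Of the 37, 31 reached 2-fold at 3 days, as did 10.5% of all 16164 genes counted, and 24 reached it at 28 days, as did 6.43% of all genes. None was at least 2-fold lower at either time, against 2.12% and 0.582% of all genes. The median log2 ratio of the 37 genes was 1.75 at 3 days and 1.23 at 28 days, beside 0.14 and 0.04 over all genes. With the hot spots described below left out, which the members' own counts had chosen, the summed ratio by side was 0.40 and 0.34. Then 4 genes were past 2-fold at 3 days, as were 6.48% of all genes, and 5 at 28 days, as were 3.54%. The counts of 31 and 24 were 29 and 22 with TMM scaling, 29 and 21 with UMIs counted per bin, and 28 and 23 over mirrored tissue only.

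The genes were then read in the lesion zone, the part of the injured side where tiles were rich in 6 phagocyte genes that are not in the set, and in the same area reflected across the side boundary. The zone held 8384 bins at 3 days and 13559 at 28 days. Zone bins had a mean of 602 and 528 UMIs, beside 930 and 628 in the mirrored areas. The summed level was nearly the same in both zones, 1572 CPM at 3 days and 1607 CPM at 28 days. This holds for the sum and not for most genes: 25 of 37 were lower in the 28-day zone, while Lgals3bp went from 86.4 to 322 CPM. The mirrored areas stood at 389 and 263 CPM. The log2 ratios were 2.01 (1.95 to 2.08) and 2.61 (2.54 to 2.68), or 2.39 and 2.54 against the whole opposite side. In the zone 33 of 37 genes were past 2-fold in the 3-day section and 34 of 37 in the 28-day section, as were 17.1% and 16.4% of all genes. None was 2-fold lower, against 8.72% and 7.82% of all genes.

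The sections differed most in the injured-side tissue outside the zone. There the genes summed to 706 CPM at 3 days and 323 CPM at 28 days. Against the opposite side this was a log2 ratio of 1.24 (1.21 to 1.26) at 3 days, with 28 of 37 genes at least 2-fold higher where 6.39% of all genes were, and of 0.23 (0.19 to 0.26) at 28 days, with 2 of 37 where 1.88% were. Those 2 were the nucleic acid sensors Ifi204 at 1.48 and Zbp1 at 1.14. No member was 2-fold lower there, against 2.35% and 0.777% of all genes, and Xaf1 had the lowest ratio at 28 days, -0.36. This area was compared after the maps had been seen.

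**Figure D1:**
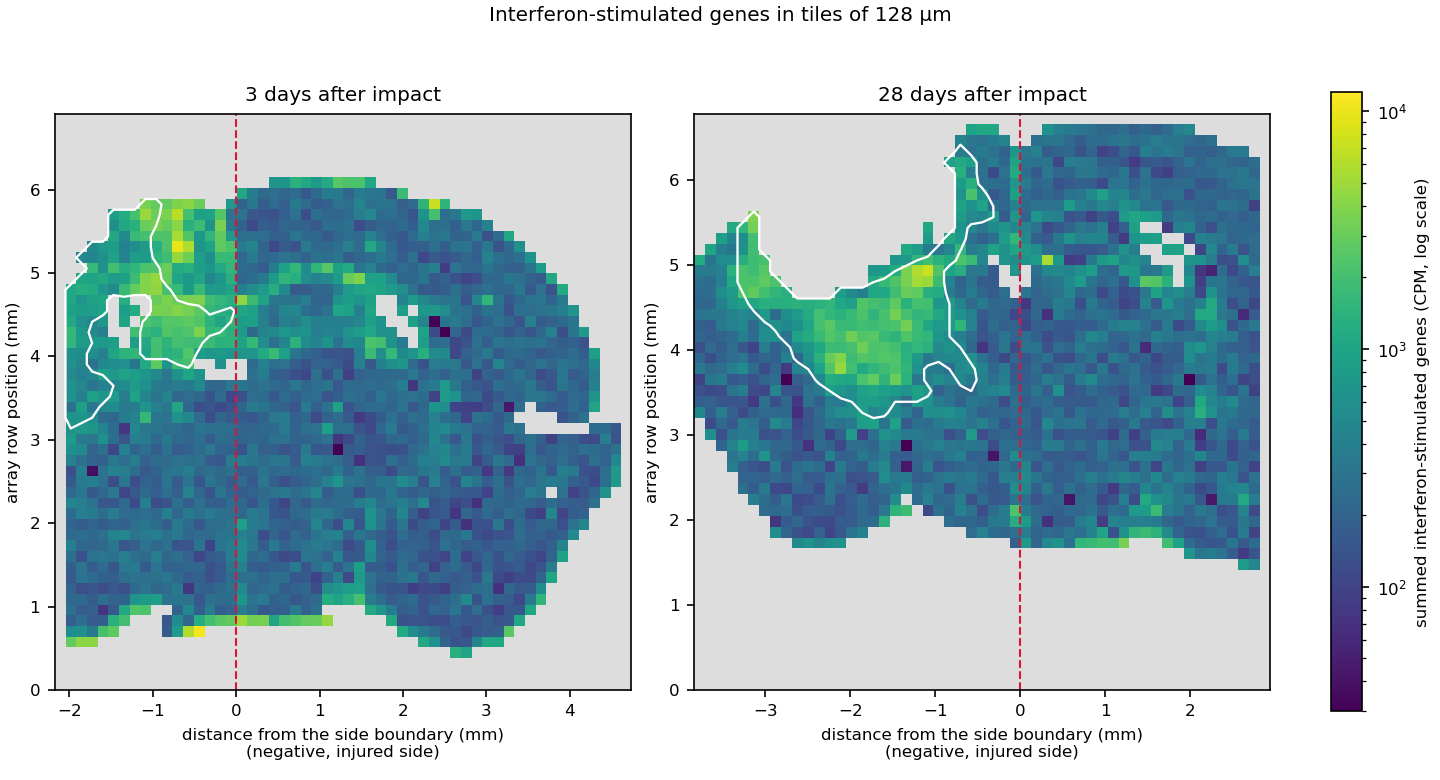
Summed level of the 37 genes in tiles of 8 by 8 bins (colour, CPM on a log scale, with tiles under 30 CPM drawn at 30) against distance from the side boundary (dashed line, to the nearest tile, mm) and array row position (mm), with the lesion zone outlined in white. At 3 days bright tiles lay in and beside the zone and along tissue edges, and the highest tile reached 11144 CPM, while at 28 days they lay mostly inside the zone, where the highest reached 7343 CPM.

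Proteins of the Stat and Irf families bind short repeats of GAAA upstream of these genes, so the promoters of the set were read for them. RefSeq promoter windows of build GRCm38.p6, 250 bases before to 50 after a transcript start, were matched by symbol for 29 of the 37 genes. The motif GAAA, any 2 bases, GAAA, searched on both strands and reading TTTC, any 2 bases, TTTC on the other, was in a window of 16 of the 29 genes, or 55.2%. It was in a window of 3.99% of all 27025 genes and in 3.44% of the 32851 promoter windows. The shorter palindrome TTCNNNGAA, the core of a site for Stat dimers, was in 7 of 29, or 24.1%, against 9.55% of all genes and 8.30% of all windows. Both motifs were present for 5 of 29, or 17.2%, against 0.614% of all genes. A match is a description of the letters and not evidence of binding. Oas2, Usp18, Rtp4, Iigp1, Parp14, Dhx58, Zbp1 and Ifi204 were not matched. The windows of 7 members that recur below follow, each read 5′ to 3′ along the strand of its gene, with the letters of matches to this GAAA repeat in capitals on either strand:
Isg15, chr4:156200865-156200906, minus strand: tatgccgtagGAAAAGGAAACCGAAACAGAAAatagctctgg
Ifit1, chr19:34640775-34640823, plus strand: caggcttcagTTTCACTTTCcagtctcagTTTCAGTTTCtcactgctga
Bst2, chr8:71537577-71537612, minus strand: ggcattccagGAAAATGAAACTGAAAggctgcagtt
Irgm1, chr11:48871425-48871460, minus strand: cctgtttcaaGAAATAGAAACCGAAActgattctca
Gbp2, chr3:142620594-142620623, plus strand: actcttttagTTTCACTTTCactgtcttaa
Rsad2, chr12:26456553-26456582, minus strand: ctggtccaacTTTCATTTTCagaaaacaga
Stat2, chr10:128270266-128270295, plus strand: cgcaccctggTTTCAGTTTCctttccctag

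All 7 windows lie upstream of the gene start. The capitals begin 78 bases before the start for Isg15, 104 for Ifit1, 130 for Bst2, 30 for Irgm1, 59 for Gbp2, 120 for Rsad2 and 222 for Stat2. Isg15 holds 3 overlapping matches, Bst2 and Irgm1 hold 2 overlapping matches each, and Ifit1 holds 2 separate ones. Stat2 and Isg15 share the motif and stood far apart in their ratios, as given next.

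Signalling and transcription. Irf7, the factor that amplifies interferon production, was at 27.8 CPM on the injured and 5.11 CPM on the opposite side 3 days after impact, and at 14.9 and 4.29 CPM 28 days after. Its log2 ratios were 2.44 (2.28 to 2.61) and 1.79 (1.55 to 2.04). In the zone Irf7 had the highest ratio of all members at 3 days, 3.95 (3.43 to 4.56), from 329 UMIs against 30 in the mirrored area, while against the whole opposite side Ifi204 was higher, at 5.29. Irf9, the DNA-binding part of the interferon complex, was at 29.6 against 14.8 CPM at 3 days and 22.4 against 12.1 CPM at 28 days, ratios of 1.003 and 0.89, so it sat at the 2-fold line. Stat2, its partner, was already at 36.3 CPM opposite the injury in the 3-day section and at 57.2 CPM on the injured side, a ratio of 0.65 (0.57 to 0.73). At 28 days Stat2 was at 39.1 against 34.7 CPM, a ratio of 0.17 (0.07 to 0.28), and its zone ratios were 0.92 and 0.61, or 1.29 and 0.74 against the whole opposite side, which puts the 3-day value past 2-fold. Of these 3 genes, 2 were at least 2-fold higher by side at 3 days and 1 at 28 days.

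Nucleic acid sensors. Ifi204, a sensor of DNA, and Zbp1, a sensor of Z-form nucleic acid that can trigger cell death, had the highest ratios by side of all members at both times. Ifi204 had 358 UMIs on the injured side and 72 on the opposite side at 3 days, 9.53 against 0.868 CPM, a ratio of 3.45 (3.09 to 3.84). At 28 days it had 214 against 29 UMIs, a ratio of 3.15 (2.60 to 3.78). In the zone it stood at 34.1 against 2.22 CPM at 3 days, a ratio of 3.898, and at 22.4 against 0.542 CPM at 28 days, a ratio of 5.201 (3.98 to 7.26) that rests on 4 UMIs in the mirrored area. Zbp1 was at 8.33 against 1.11 CPM by side at 3 days and 4.01 against 0.421 CPM at 28 days, ratios of 2.90 (2.57 to 3.26) and 3.22 (2.56 to 4.03). Its zone ratios were 3.603 and 4.51, the latter against 5 UMIs, or 4.46 and 5.30 against the whole opposite side. The RNA sensor Ifih1 had side ratios of 1.57 and 0.81, its relative Dhx58 1.65 and 1.31, and the RNA-activated kinase Eif2ak2 1.35 and 0.75. All 5 sensors were at least 2-fold higher by side at 3 days, 3 of 5 at 28 days, and all 5 in the zone at both times.

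Antiviral effectors. The Ifit proteins bind foreign RNA and block its translation, and their genes lie next to each other on chromosome 19. For Ifit3 the levels were 60.1 CPM on the injured and 15.4 CPM on the opposite side 3 days after impact, a ratio of 1.964 (1.86 to 2.06), and 27.7 and 14.7 CPM 28 days after, a ratio of 0.92 (0.78 to 1.06). Ifit1 had ratios of 2.10 and 1.21. Ifit2 had lower ones, 1.08 and 0.32, with similar levels on the opposite side at both times, 13.8 and 14.8 CPM. Bst2, which tethers budding virus to the cell, was at 38.5 against 10.1 CPM at 3 days and 34.7 against 9.47 CPM at 28 days, nearly the same ratio at both times, 1.92 and 1.87. In the zone Bst2 was at 100 CPM at 3 days and 119 CPM at 28 days, with mirrored areas of 22.9 and 6.64 CPM and ratios of 2.13 (1.88 to 2.39) and 4.15 (3.75 to 4.61). Against the whole opposite side they were 3.31 and 3.65, so most of the gap between the times lay in the mirrored areas. Oasl2, a relative of the enzymes that activate RNase L, also kept its side ratio, 2.11 at 3 days and 2.05 at 28 days, and had a zone ratio of 4.41 (3.83 to 5.11) at 28 days, or 3.797 against the whole opposite side.

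Among the other effectors, Ifitm3, which hinders virus entry at endosomes, was at 28.9 against 7.59 CPM by side at 3 days and 10.2 against 4.27 CPM at 28 days. Oas2 had side ratios of 2.27 and 1.43, and Samd9l 0.82 and 1.03. Rsad2 and Cmpk2 lie next to each other on chromosome 12, at 26442743 to 26456452 and 26469117 to 26479837 in GRCm38.p6, and Rsad2 makes an antiviral nucleotide from a product in the pathway of Cmpk2, a nucleotide kinase. Rsad2 was at 15.4 against 3.24 CPM at 3 days, a ratio of 2.25 (2.04 to 2.46), and 1.23 (0.89 to 1.59) at 28 days. Cmpk2 was at 24.5 against 19.0 CPM at 3 days, a ratio of 0.37 (0.25 to 0.49), and 20.4 against 21.5 CPM at 28 days, a ratio of -0.08 (-0.22 to 0.06). In the zone Cmpk2 had 84 UMIs against 164 at 3 days, a ratio of -0.45 (-0.85 to -0.07), and 149 against 155 at 28 days, a ratio of -0.01. It was the member with the lowest ratio in both zones, and with a wider zone set at the 95th percentile the 3-day value was 0.21. Of the 10 effectors, 8 were at least 2-fold higher by side at 3 days and 7 at 28 days, and 9 of 10 were in each zone.

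The ISG15 pathway and ubiquitin ligases. Isg15, a ubiquitin-like protein that is attached to other proteins, was at 40.01 CPM against 6.19 CPM by side at 3 days, a ratio of 2.69 (2.55 to 2.84). The 28-day levels were 9.56 and 3.83 CPM, a ratio of 1.32 (1.05 to 1.59). In the zone it was at 82.0 CPM at 3 days and 30.9 CPM at 28 days, but its mirrored areas were at 6.81 and 2.30 CPM, so its zone ratios were 3.58 and 3.71, or 3.73 and 3.01 against the whole opposite side. Usp18, which removes Isg15 and restrains the interferon receptor, had side ratios of 2.43 and 1.57. Trim30a had 2.28 and 1.92. Herc6, the mouse ligase that attaches Isg15, was at 30.03 against 24.1 CPM at 3 days and 25.4 against 24.5 CPM at 28 days, ratios of 0.32 (0.21 to 0.43) and 0.05 (-0.08 to 0.18). Its zone ratios were 0.81 and 0.99. Of these 4 genes, 3 were at least 2-fold higher by side and by zone at both times.

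Interferon-inducible GTPases. Some proteins of this group attack the membranes around parasites and bacteria. Irgm1 was at 79.9 against 29.1 CPM by side at 3 days, a ratio of 1.46 (1.38 to 1.53). The later section gave 51.8 and 24.2 CPM, a ratio of 1.099 (0.99 to 1.21). In the zone it stood at 149 and 142 CPM, beside 44.3 and 21.5 CPM in the mirrored areas. Gbp2 had side ratios of 1.80 and 1.58 and zone ratios of 1.82 and 3.46 (2.83 and 3.498 against the whole opposite side), and Gbp3 had side ratios of 1.85 and 1.41. Gbp7 was at 0.98 and 0.60, Iigp1 at 1.49 and 0.998, and Igtp at 0.68 and 0.58. Igtp was thin in the 3-day zone, with 17 UMIs against 15 and a ratio of 0.69 (-0.40 to 1.80). Of the 6 GTPases, 4 were at least 2-fold higher by side at 3 days and 3 at 28 days, and 5 and 6 were in the zone.

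Other induced genes. Lgals3bp, a secreted glycoprotein that binds galectins, stood apart from the set in its time course. It was at 54.0 against 18.7 CPM by side at 3 days, a ratio of 1.53 (1.43 to 1.63). By 28 days the levels were 87.3 and 17.8 CPM, a ratio of 2.30 (2.18 to 2.41). In the zone it was at 86.4 CPM at 3 days and 322 CPM at 28 days, from 436 and 2307 UMIs, and its zone ratio at 28 days was 4.44 (4.17 to 4.74). Slfn2, a Schlafen protein of immune cells, had side ratios of 1.80 and 2.35 and zone ratios of 2.86 and 4.02. Ifi44 had a side ratio of 2.48 (2.02 to 2.97) at 3 days and 1.38 at 28 days, and a zone ratio of 3.81 (2.35 to 6.36) at 3 days that rests on 34 UMIs against 3. Rtp4 had side ratios of 1.98 and 1.27, Parp14 1.75 and 1.57, and Slfn5 1.40 and 0.94. Ifi35 had 1.28 and 1.01, Sp100 1.14 and 1.22, and Xaf1 1.31 and 0.38. All 9 were at least 2-fold higher by side at 3 days and 7 of 9 at 28 days, and all 9 were in the zone at both times. Probes for near-identical relatives, such as Ifit3 and Ifit3b or the Gbp and Slfn genes, may share signal, so the split between such relatives is uncertain.

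**Figure D2:**
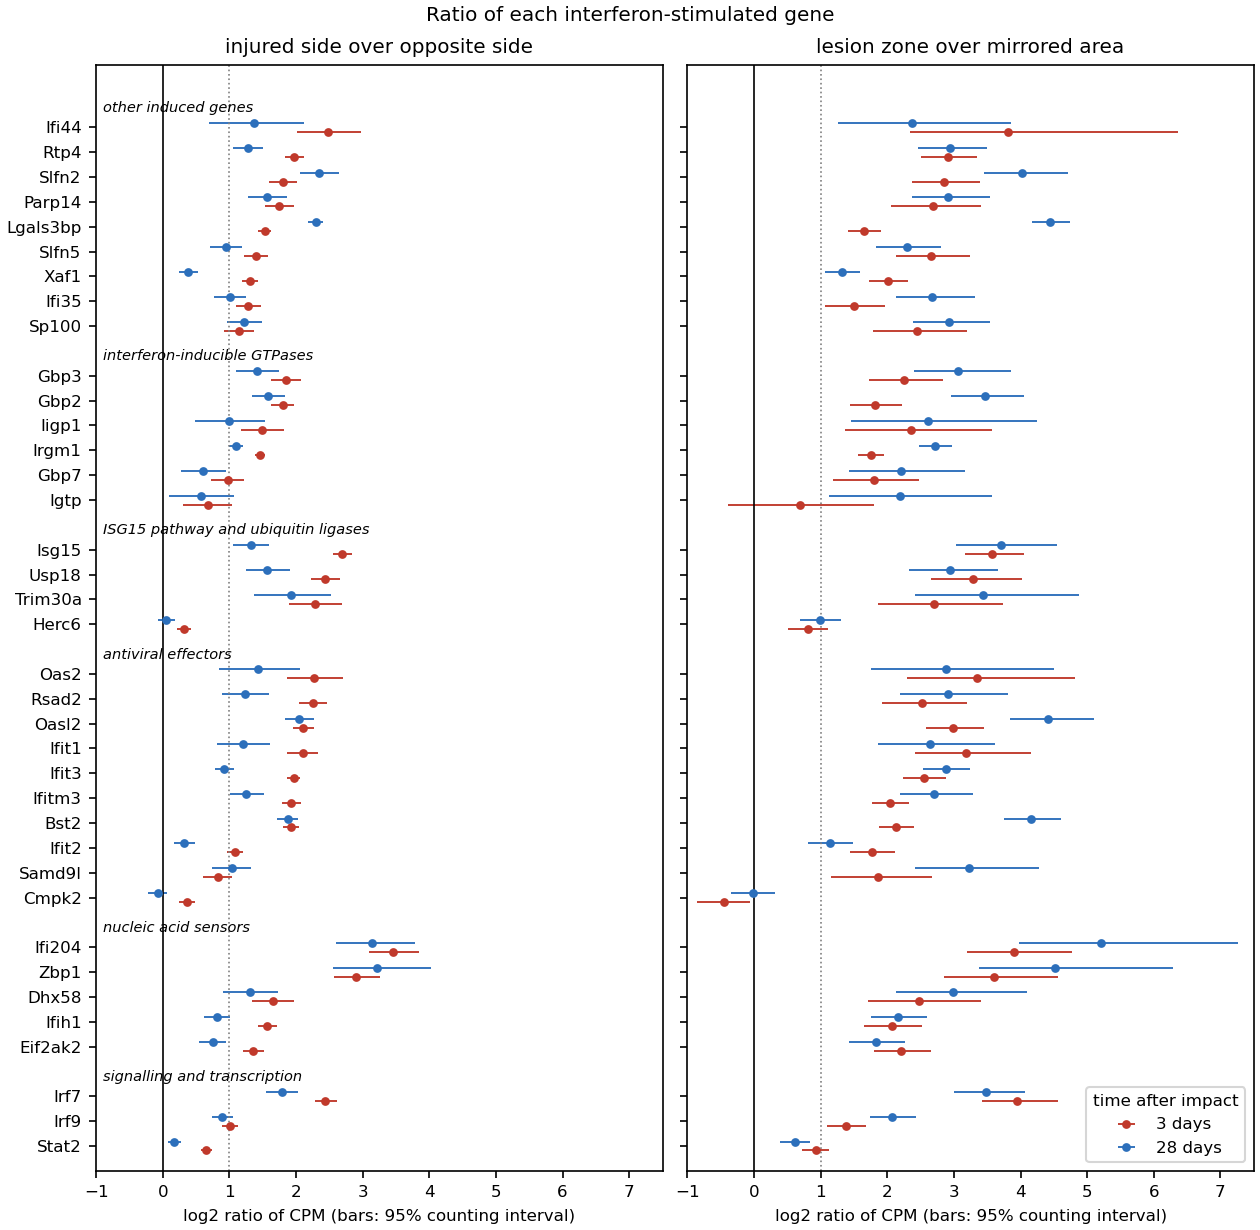
Log2 ratio of CPM for each gene, injured side over opposite side (left) and lesion zone over mirrored area (right), at 3 days (red) and 28 days (blue), grouped by role, with 95% counting intervals as bars and a dotted line at 2-fold. Cmpk2, Herc6 and Stat2 lay nearest 0 by side at both times, Cmpk2 lay nearest 0 by zone, and Ifi204 and Zbp1 had the highest side ratios at 28 days, 3.15 and 3.22.

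Set side by side, the ratio by side was lower at 28 days than at 3 days for 32 of 37 genes, with a counting interval of the difference below 0 for 20. It was above 0 for Lgals3bp and Slfn2. The sides did not cover the same tissue at both times. They held 39116 injured and 80501 opposite bins at 3 days, and 49478 and 53838 at 28 days. Over mirrored tissue only, 19 of 37 genes at 3 days and 6 at 28 days had a ratio outside their main interval. The ratio by zone was higher at 28 days for 27 of 37, with 11 intervals above 0 and 3 below, a count that rests on the mirrored area as reference. Against the whole opposite side the zone ratio was higher at 28 days for 20 of 37 and lower for 17, with 10 intervals above 0 and 6 below and a median difference of 0.01, beside 0.41 against the mirrored area. For Isg15 the difference by side was -1.37 (-1.67 to -1.08), and by zone it was 0.13 (-0.69 to 0.95) against the mirrored area and -0.72 (-1.06 to -0.38) against the whole opposite side. For Lgals3bp the differences were 0.76 by side, 2.79 by zone and 1.97 against the whole opposite side. Comparing levels directly, the zone at 28 days over the zone at 3 days gave 0.03 (-0.01 to 0.07) for the sum, and -0.16 when UMIs were counted per bin. Of the 37 genes, 25 had a ratio below 0, with 13 intervals below 0 and 7 above, and the median was -0.15. Lgals3bp, at 1.90, was the only member at least 2-fold higher at 28 days, where 4.72% of all genes were, and Ifitm3 at -1.44 and Isg15 at -1.41 were 2-fold lower, where 6.32% were. On the opposite side the sum at 28 days over 3 days was -0.11 (-0.14 to -0.08), no member was 2-fold higher where 1.52% of all genes were, and Zbp1 at -1.37, from 19 against 92 UMIs, was 2-fold lower where 1.03% were.

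The summed level was followed outward from the zone on the injured side. At 3 days it was 1572 CPM in the zone, 1388 CPM up to 250 µm from it, 1259 CPM from 250 to 500 µm, 487 CPM from 500 to 1000 µm and 247 CPM from 1000 to 2000 µm. Beyond 2000 µm it was 617 CPM, in a band that held hot spots described below. This fall depends on the scale. The zone held 7931 member UMIs in 8384 bins, the band up to 250 µm 6805 in 5237 and the next 6780 in 4481. Counted per bin, the members thus rose from the zone to 500 µm. At 28 days the summed level was 1607 CPM in the zone and already 503 CPM within 250 µm, then 339, 233 and 282 CPM. The genes did not share 1 profile at 3 days. Ifit3 was at 80.7 CPM in the zone, 98.5 within 250 µm and 127.9 from 250 to 500 µm, and Ifit1 was at 18.2, 19.2 and 26.6 CPM. Rsad2 was at 21.8, 21.2 and 38.6 CPM, also highest from 250 to 500 µm. Bst2 went the other way, at 100, 68.7 and 49.0 CPM, as did Ifitm3 at 82.4, 54.7 and 24.7 CPM and Ifi204 at 34.1, 14.7 and 12.8 CPM. Counted per bin, Bst2 was nearly level, with 507, 337 and 264 UMIs in these areas. Cmpk2 was lower in the zone than around it, at 16.6, 28.8 and 36.6 CPM. At 28 days Lgals3bp was at 322 CPM in the zone and 67.7 CPM within 250 µm, and Isg15 was at 30.9 and 9.27 CPM.

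**Figure D3:**
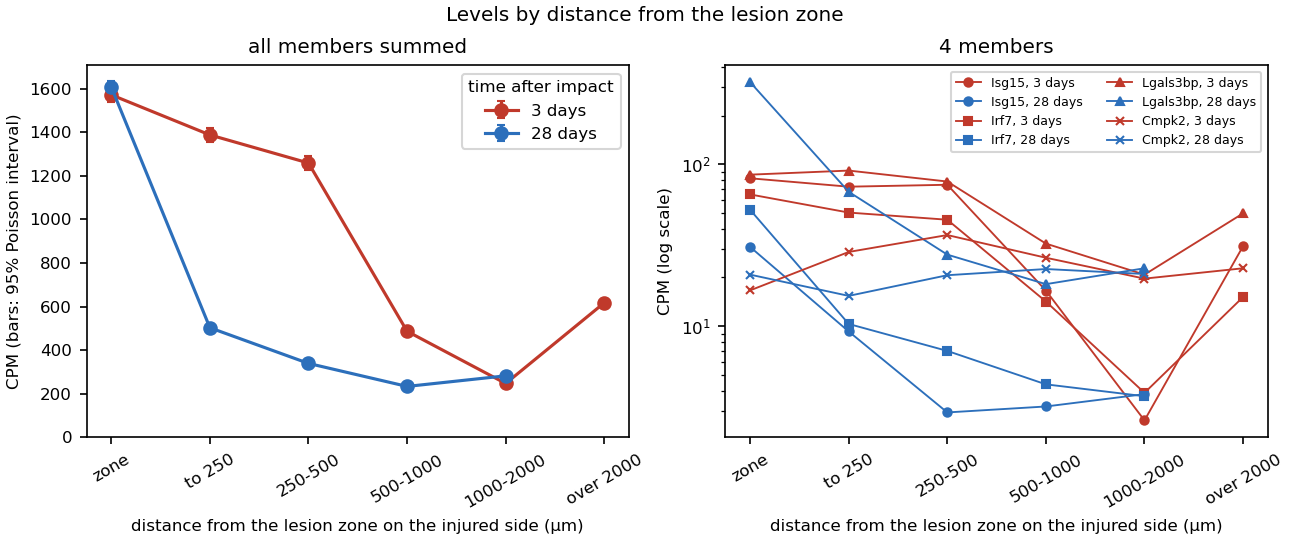
Level against distance from the lesion zone on the injured side (µm) at 3 days (red) and 28 days (blue), for all 37 genes summed (left, CPM with 95% Poisson intervals) and for 4 members (right, CPM on a log scale). The summed level was still 1259 CPM from 250 to 500 µm at 3 days and was 503 CPM within 250 µm at 28 days.

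Focal hot spots were tiles of 8 by 8 bins in which the genes summed to at least 3 times the median tile of the opposite side. Tiles were picked by CPM, so shallow tissue could be hot with few member UMIs per bin, as given below. That median was 240 CPM at 3 days and 247 CPM at 28 days, and the lines were 721 and 742 CPM. The tiles nearest the line were at 722 above and 711 below at 3 days, and at 742 above and 731 below at 28 days, so the line cuts a continuous range. At 3 days 211 of 604 tiles on the injured side were hot, 34.9%, and 117 of 1268 on the opposite side, 9.23%. At 28 days the counts were 207 of 780, 26.5%, and 49 of 836, 5.86%. Hot tiles covered 16.7% of the bins of tiled tissue and held 51.2% of the members' UMIs there at 3 days, and 15.0% of bins with 42.4% of UMIs at 28 days. Of the bins in hot tiles, 29.7% lay in the lesion zone at 3 days and 65.4% at 28 days.

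Because the members chose the hot tiles, each gene was also read in tiles that were hot for the sum of all the other members. In those tiles 36 of 37 genes were at least 2-fold higher than in the remaining tiles at 3 days, and 34 of 37 at 28 days. In tiles hot for the whole set, 22% of all genes at 3 days and 21.7% at 28 days were past 2-fold, and 5.15% and 9.44% were 2-fold lower, with no member among the latter. The median log2 ratio of the members was 3.31 at 3 days and 2.97 at 28 days. Isg15 was at 107 CPM in tiles hot for the others and 3.58 CPM elsewhere at 3 days, a ratio of 4.90, so 80.0% of its UMIs lay in those tiles. Zbp1 had ratios of 4.88 and 4.94. Lgals3bp had 2.51 at 3 days and 3.73 at 28 days. Cmpk2 was again the exception, at 29.3 against 19.6 CPM at 3 days, a ratio of 0.58 (0.43 to 0.73), and 19.3 against 21.3 CPM at 28 days, a ratio of -0.14 (-0.38 to 0.09). Stat2 had ratios of 1.42 and 0.79 and Herc6 1.42 and 0.82.

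**Figure D4:**
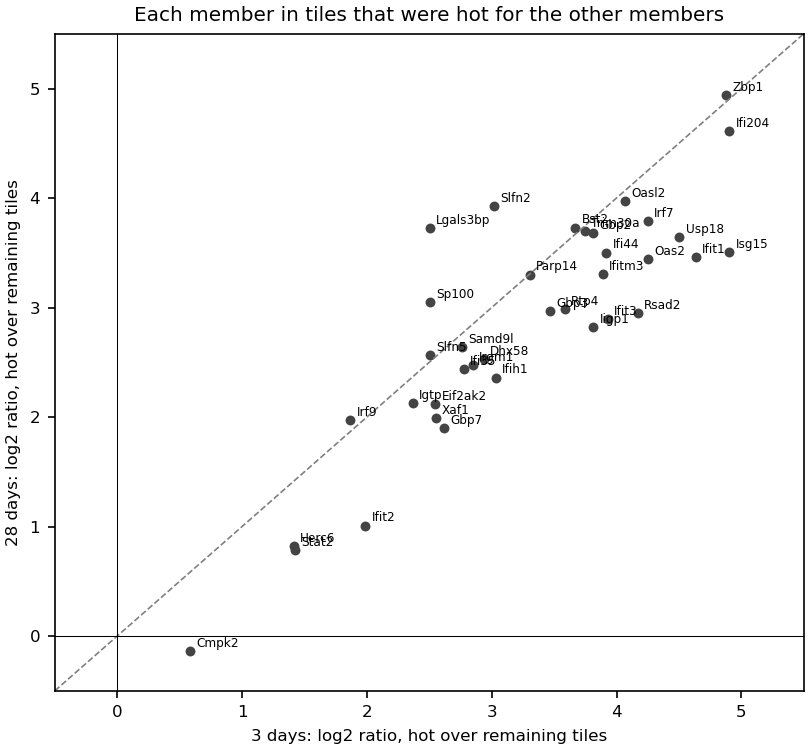
Log2 ratio of each member between tiles that were hot for the sum of the other members and the remaining tiles, at 3 days (x axis) and 28 days (y axis), with the line of equal values dashed. Isg15 lay at 4.90 and 3.51 and Lgals3bp at 2.51 and 3.73, on opposite sides of the line, and Cmpk2 lay nearest 0.

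Joined hot tiles gave 9 hot spots of at least 4 tiles in each section. The largest at 3 days held 207 tiles on the injured side with 1937 CPM, and 44.2% of its bins lay in the zone. Its highest members, read against tissue outside hot tiles as a description, were Ifi204 at 5.26, Zbp1 at 5.13, Isg15 at 5.09, Usp18 at 4.67 and Ifit1 at 4.59. The largest at 28 days held 178 tiles with 1807 CPM, and 85.8% of its bins lay in the zone. Its highest members were Zbp1 at 5.3997, Ifi204 at 4.98, Slfn2 at 4.34, Lgals3bp at 4.24 and Bst2 at 4.21. Zbp1 and Ifi204 were thus among the first 5 in both, and the other 3 differed. Marker lists moved with these spots. The microglia and macrophage list was 1.86 higher on the log2 scale in the 3-day spot and 3.62 higher in the 28-day spot, the monocyte list 4.54 and 4.11, and the fibroblast and meninges list 3.49 and 2.23. The choroid plexus list was at 3.57 and 2.38, the ependyma list at 2.38 and 2.10, and the astrocyte list at 2.00 and 2.78. The 6 phagocyte genes that placed the zone were at 2.80 and 4.74. The oligodendrocyte list was at 1.09 in both, and the neuron list was at -0.62 and -1.44. The part of these cell types in the members' levels was not tested.

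Several spots lay far from the zone. At 3 days the spot with the highest tile, 11144 CPM, held 16 tiles at 3744 CPM, spanned the side boundary from column 82 to 201 and lay 2.69 mm from the zone. Its highest members were Zbp1 at 6.86, Ifit1 at 6.57, Isg15 at 6.46, Oas2 at 6.39 and Rsad2 at 6.002. In it the monocyte list stood at 6.12, from 29 UMIs, and the fibroblast and meninges list at 5.72, while the neuron list stood at -3.82. Its astrocyte and oligodendrocyte lists were at 2.30 and 1.88, from 2122 and 4236 UMIs, and it had a mean of 481 UMIs per bin. Another, on the injured side and 2.18 mm from the zone, held 12 tiles at 2384 CPM, with Ifit1 at 5.64, Ifitm3 at 5.29, Isg15 at 5.22, Oasl2 at 5.201 and Usp18 at 5.00. Its fibroblast and meninges list was at 6.10 and its mural cell list at 4.52. Further spots on the opposite side, of 6, 9 and 8 tiles, had the fibroblast and meninges list at 5.32, 5.37 and 4.36. Ifit1 was the highest member of each, at 5.03, 5.07 and 6.03, from 9, 10 and 25 UMIs. A spot of 4 tiles on the opposite side, 2.55 mm from the zone, held a tile of 7265 CPM. Its highest members were Isg15 at 6.01, Ifi44 at 5.71, Ifit1 at 5.44, Usp18 at 5.395 and Rsad2 at 5.35, and its neuron list was at 0.08, the highest value of that list in any of the 18 spots. Its fibroblast and meninges list was at 3.18 and its mural cell list at 1.61, from 73 and 92 UMIs.

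Spots rich in genes of the ependyma, which lines the ventricles, or of the choroid plexus did not share 1 order of members. At 3 days a spot of 6 tiles on the opposite side had the choroid plexus list at 6.80, and its highest members were Bst2 at 4.74, Lgals3bp at 3.79, Gbp2 at 3.28, Ifitm3 at 2.88 and Ifih1 at 2.81, and Isg15 had 3 UMIs. A spot of 26 tiles had the ependyma list at 5.39 and the oligodendrocyte list at 2.56, from 943 and 8399 UMIs. Its highest members were Ifitm3 at 4.90 and Gbp2 at 4.62. At 28 days a spot of 9 tiles with the choroid plexus list at 5.69 was again led by Bst2 at 4.67, followed by Ifitm3 at 3.605 and Lgals3bp at 3.28, and Isg15 had 0 UMIs. A spot of 7 tiles across the boundary had choroid plexus at 5.27 and fibroblasts at 4.74, with Ifi204 at 5.91 and Zbp1 at 5.55, from 10 and 4 UMIs, the genes that also led the largest spots. A spot of 5 tiles had ependyma at 4.38 and the oligodendrocyte list at 3.34, from 55 and 1937 UMIs. It was led by Zbp1 at 6.39 and Ifit1 at 5.91, from 2 and 5 UMIs. The remaining 28-day spots were a spot of 11 tiles with fibroblasts at 5.55, led by Ifi44 at 4.82 from 3 UMIs, and a spot of 11 tiles with 95.6% of its bins in the zone, led by Iigp1 at 4.07 from 7 UMIs. The other spots of 4 or 5 tiles on the opposite side, led by Iigp1, Zbp1 or Trim30a, rest on 64 to 241 member UMIs each and on 5 UMIs or fewer of the leading gene. The oligodendrocyte list in them ran from -1.42 to 3.63. Some spots were shallow. A 28-day spot of 4 tiles held 64 member UMIs in 248 bins, at a mean of 246 UMIs per bin. Another, of 5 tiles, held 82 in 312 bins, at 314 UMIs per bin. The 3-day spot of 26 tiles held 602 in 1559 bins, at 312 UMIs per bin. Counted per bin, these fell below the section means of 0.326 member UMIs at 28 days and 0.465 at 3 days. The other spots of at least 4 tiles were above them.

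**Figure D5:**
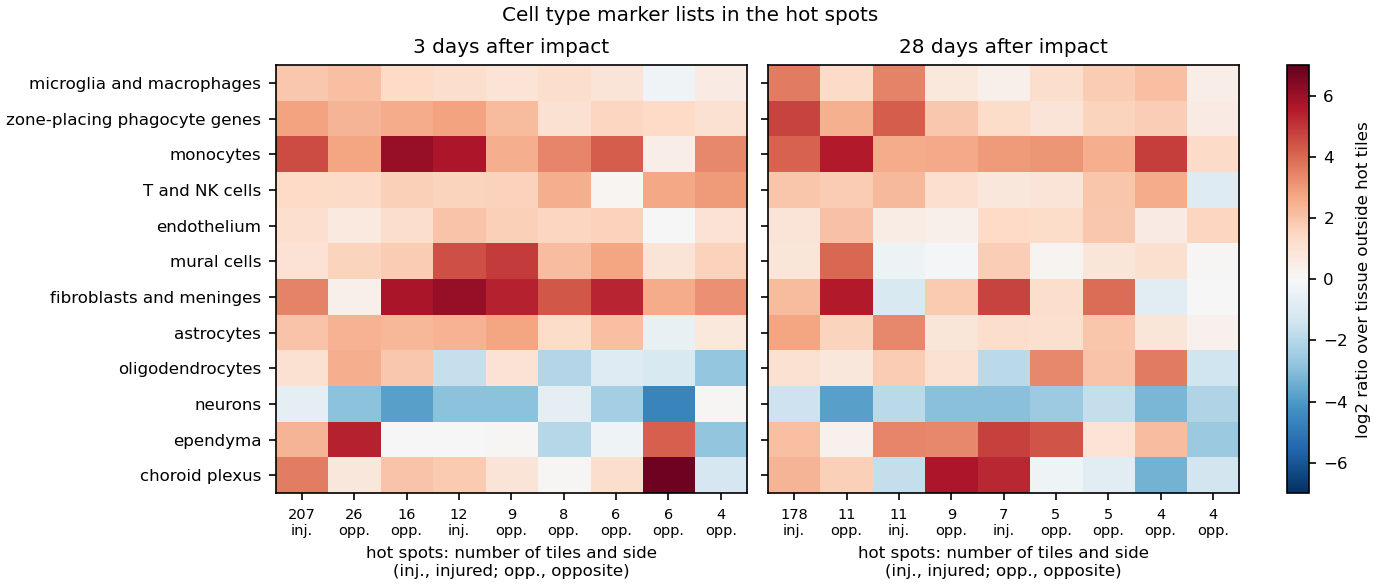
Log2 ratio of 12 cell type marker lists (rows) in each hot spot of at least 4 tiles (columns, with their number of tiles and side) over tissue outside hot tiles, at 3 days (left) and 28 days (right). Fibroblast, ependyma or choroid plexus lists were high in most spots outside the largest. The neuron list was below 0 in all but 1 spot, down to -4.60, and the oligodendrocyte list ran from -2.72 to 3.63. Several monocyte values rest on 0 or 1 UMI, such as 3.10 from 0 UMIs in a 28-day spot of 5 tiles.

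Hot tissue at 3 days was not 1 kind of tissue. Hot tiles in the zone were at 1944 CPM and hot tiles of the injured side outside it at 2083 CPM, while the microglia and macrophage list was at 2563 CPM in the former and 1283 CPM in the latter. The neuron list was at 1570 and 4357 CPM. Ifit3 was at 104 CPM in hot tissue of the zone and 202 CPM outside it, Rsad2 at 30.2 and 52.1 CPM, and Ifit1 at 25.1 and 42.7 CPM. Ifi204 was at 42.2 and 21.7 CPM and Slfn2 at 49.6 and 29.4 CPM. Ifit2 was nearly level, at 61.5 and 60.9 CPM. So at 3 days Ifit1, Ifit3 and Rsad2 were higher in hot tissue outside the zone, and Ifi204 and Slfn2 in hot tissue inside it. Zone tissue that was not hot, and so was chosen for a low sum, was at 534 CPM for the set at 3 days and 519 CPM at 28 days. Its microglia and macrophage list was at 2176 CPM at 3 days, close to the hot zone tissue, and at 3115 CPM at 28 days, where the hot zone tissue was at 7434 CPM. At 28 days hot tissue was at 1925 CPM in the zone and 1085 CPM outside it. Then Ifit3 was at 93.9 CPM inside and 69.0 CPM outside, Rsad2 at 19.5 and 11.2 CPM and Ifit1 at 16.2 and 14.4 CPM. Ifi204 was at 28.2 and 10.2 CPM and Slfn2 at 64.4 and 17.7 CPM, so all these genes were higher inside the zone at that time.

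Single bins with UMIs of at least 4 different members numbered 1984 at 3 days and 728 at 28 days. Of these, 1605 and 631 lay on the injured side, and 21.5% and 73.2% lay in the zone. With every bin thinned to 300 UMIs, the share of such bins at 3 days was 0.580% on the injured and 0.0838% on the opposite side. At 28 days it was 0.144% and 0.0203%. Unthinned shares were 4.10% and 0.471%, and 1.28% and 0.180%. Thinning left out 4297 and 8918 shallower bins at 3 days and 9853 and 9532 at 28 days. In the thinned zone the share was 0.695% at 3 days and 0.546% at 28 days, against 0.0799% of the mirrored area at 3 days and 0 of 8665 bins at 28 days, which allows a share of up to 0.0346% at 3 counts of the total, and up to 0.0426% by the exact two-sided interval. The richest bin held 22 members at 3 days and 14 at 28 days. Bins within 3 bins of each other were joined, and groups of at least 5 bins were counted as foci. There were 34 foci at 3 days, the largest of 1054 bins, and 16 at 28 days, the largest of 359. These foci held 86.8% and 75.4% of the bins with at least 4 members.

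The bins that carried the genes also carried markers of several cell types. In bins with at least 2 UMIs of the fibroblast and meninges list, the members were higher than in other bins of the same side by a log2 ratio of 1.78 on the injured and 2.82 on the opposite side at 3 days, and by 1.82 and 2.38 at 28 days. For the microglia and macrophage list they were 1.15 and 0.60, then 1.86 and 0.50. For endothelium they were 0.86 and 1.105, then 1.05 and 1.08. For astrocytes they were 1.07 and 0.74, then 1.49 and 0.45. For oligodendrocytes they were -0.10 and -7.4e-05, then 0.78 and 0.02. Mural cell bins gave 0.99 and 1.31, then 0.90 and 1.22, and ependyma bins 0.37 and 1.29, then 1.29 and 1.12. Choroid plexus bins gave 0.27 and 1.51, then 0.44 and 1.41, and bins of the zone-placing genes 1.55 and 1.27, then 2.07 and 1.08. Bins with neuron markers were lower in the members, by -0.96 and -1.59 at 3 days and -1.65 and -1.08 at 28 days. Neuron bins were also deeper than the other bins. Their median UMIs were 1192 against 487 and 1120 against 409 at 3 days, then 895 against 374 and 965 against 352. Lower here means a lower share of UMIs, which need not mean fewer member UMIs per bin. The members differed: in microglia and macrophage bins of the injured side at 28 days, Slfn2 was at 3.37, Zbp1 at 3.32 and Lgals3bp at 2.86, while Cmpk2 was at -0.06 and Stat2 at 0.47. On that side the list itself was at 7434 and 3115 CPM in hot and other zone tissue, and at 1088 and 528 CPM outside the zone. Cell type and place therefore cannot be told apart in these ratios. In neuron bins of the injured side at 3 days, Cmpk2 was at 0.44 and Stat2 at -0.03, where Ifitm3 was at -2.44.

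Marker levels differed between the zones. The microglia and macrophage list was at 2461 CPM in the zone and 754 CPM in its mirrored area at 3 days, and at 6331 and 452 CPM at 28 days. The astrocyte list was at 5059 and 1898 CPM, then 8232 and 1010 CPM. Phagocyte genes placed the zone, so a higher microglia and macrophage list there than in the mirrored area is not an independent result. All 8 microglia and macrophage genes had UMIs in each area. The monocyte list, of which 3 of 4 genes were in the tables, was at 44.2 CPM in the 3-day zone and 14.1 CPM in the 28-day zone. The summed level of the interferon-stimulated genes was nearly equal in the zones, though 25 of 37 members were lower at 28 days and Lgals3bp was higher. That sum stood beside a microglia and macrophage list that was higher at 28 days, and the part of these cells in it was not tested.

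The rest of the pathway was read from lists of 71 further genes in the tables. The 8 interferon genes in the tables were at or near the limit of detection, at 46 UMIs on the injured and 60 on the opposite side in the 3-day section and 51 and 39 in the other. In the zone they had 5 UMIs against 13 in the mirrored area at 3 days and 22 against 7 at 28 days. Ifna2 passed 20 UMIs by side at both times, at 13 against 17 and then 16 against 7, and its 28-day ratio of 1.42 (0.11 to 3.00) was the only one past 2-fold among the interferon genes with enough UMIs. Ifne, the other gene to pass at 28 days, had 15 against 14. None of the 7 receptor and kinase genes was at least 2-fold higher by side at either time. In the zone Ifnar2, a chain of the type I receptor, and Ifngr1, a chain of the type II receptor, were, at 1.104 and 1.22 at 3 days and 1.76 and 2.06 at 28 days. These are 2 of 7 genes, where 17.1% and 16.4% of all genes were past 2-fold. With so few genes the list cannot be set apart from that share. Of the 6 further transcription factors, 4 were at least 2-fold higher by side at each time, though not the same 4, beside 10.5% of all genes at 3 days and 6.43% at 28 days. Irf8, a factor of myeloid cells, was at 1.32 and 2.41, and Nlrc5, which drives MHC class I genes, at 2.03 and 2.14. Of 11 sensors and adaptors, 4 were 2-fold higher by side at 3 days and 5 at 28 days, among them Tlr7, an endosomal RNA sensor, at 1.49 and 2.32. Socs3, at 1.91 and 1.62, was the only one of 5 negative regulators past 2-fold by side.

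Further induced genes outside the set followed it. Of those with at least 20 UMIs, 27 of 33 were at least 2-fold higher by side at 3 days and 21 of 31 at 28 days, beside 10.5% and 6.43% of all genes. In the zone 26 of 28 and 26 of 29 were, beside 17.1% and 16.4%. Ifi207, a relative of Ifi204, was at 3.34 and 3.45 by side, and Ifi27l2a at 2.46 and 2.29. Cxcl10, a chemokine that draws T cells, had 746 UMIs on the injured side and 124 on the opposite side at 3 days, a ratio of 3.73, and 225 against 50 at 28 days, a ratio of 2.44. In the zone it had 70 UMIs against 18 at 3 days and 178 against 0 at 28 days, which is at least 61.2-fold higher against a floor of 3 counts in the mirrored area. All 50 UMIs of the opposite side at 28 days lay outside the mirrored area, so the fold against that whole side would be smaller. At 3 days the mirrored area held 18 of that side's 124 UMIs of the gene and 7196550 of its 82919911 UMIs. There the fold against the whole side would be larger. The place of Cxcl10 differed between the sections: at 3 days it was at 17.4 CPM in hot tissue of the zone and 90.3 CPM in hot tissue outside it, and at 28 days at 31.3 and 16.05 CPM. Oas3 had 23 UMIs against 0 in the 28-day zone, at least 7.91-fold higher.

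Genes whose tile levels ran most like the summed members were found by Pearson's correlation of log2(CPM + 50) across tiles, which share a library and neighbours, so the values are a description. Over 1872 tiles and 13253 genes at 3 days the first was Vim, a filament gene of reactive glia and mesenchymal cells, at 0.76, followed by Tnfrsf1a, Msn, S100a11 and Cd63, then S100a6, Ifi27l2a, Zfp36, C4b and Gfap at 0.67. Over 1616 tiles and 12796 genes at 28 days the first was Apoe at 0.75, followed by Vim, C1qa, Gfap and Cd9, then Cd63, Ctss, Ctsd, Lyz2 and H2-K1 at 0.70. Vim, Cd63 and Gfap were in both lists. The 28-day list held phagocyte genes, C1qa, Ctss and Lyz2, that were not among the first 10 at 3 days.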

How the data were processed

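Deposited Visium HD tables were used: UMI counts per gene and bin, made by the authors with Space Ranger (4.0.1 in the file header) from a mouse probe panel, with mm10 named in the submitters' processing notes. The deposited counts carry no normalization. Because the assay counts probes, genes without a probe and probe efficiency limit comparisons between genes. Scale and depth were taken from the counts themselves, 120615873 UMIs at 3 days and 82422389 at 28 days.

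Bins under 100 UMIs were left out, 1.93% and 2.15%. The injured side was array column under 130 at 3 days and under 240 at 28 days. Counts were summed by area, divided by the area's UMIs, and set against each other on the log2 scale after adding 0.5 UMI to each, with exact conditional binomial intervals. Genes with at least 20 UMIs over both areas entered comparisons, and called means 2-fold. The zone was built from smoothed tiles of 4 by 4 bins whose phagocyte genes exceeded 99% of opposite-side tiles. Poisson and Clopper-Pearson intervals were exact, and cover counting error only. No test across sections was made. The interval code and the hot-tile search were tested on simulated data.

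The text names the 5 members with most UMIs, the 5 highest and 3 lowest ratios by side and zone, up to 5 of the highest in each hot spot (fewer where these rest on few UMIs), the 10 most similar genes, some of the pathway genes past 2-fold, picked after their values were seen and with 1 item not reported here, and every other member by its ratios. Members and lists were chosen with earlier results of these data known. Alternatives were TMM scaling (edgeR 4.0.16, R 4.3.3), UMIs per bin, shifted boundaries, other zone and tile lines and areas left out. The software was scipy 1.17.1 for intervals, pandas 2.3.3 and numpy 2.4.6 for sums and matplotlib 3.10.9 for plots, under Python 3.11.15.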

Additional observations from a re-analysis of the deposited data

How the results depend on the processing

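The direction of the summed ratios by side and zone held under each alternative run. UMIs per bin were not run for the zone against its mirrored area. Zone bins were shallower than mirrored ones, so ratios per bin would be smaller there. Without the hot spots the log2 ratio by side was 0.40 at 3 days and 0.34 at 28 days, with 4 and 5 genes at least 2-fold higher. Without them Gbp7 was at -0.10, Igtp at -0.50, Herc6 at -0.49 and Samd9l at -0.28 at 3 days, and Xaf1 at -0.27 and Igtp at -0.039 at 28 days. Outside the lesion zone, an alternative chosen after seeing the data, the ratio was 1.24 at 3 days and 0.23 at 28 days, with 2 genes at least 2-fold higher at 28 days, Stat2 at -0.0004, Xaf1 at -0.36 and Herc6 at -0.12, each above 0 by side, and Cmpk2 at -0.08 in both. The other values by side at 3 days were 1.32 with TMM scaling, 1.36 per bin, 1.39 with the boundary moved 20 columns towards the opposite side and 1.29 over mirrored tissue only. At 28 days they were 1.01 with TMM scaling, 0.88 per bin, 1.09 with the boundary moved 20 columns towards the injured side and 0.95 towards the opposite side.

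By zone at 3 days the ratio was 1.89 with TMM scaling, 2.14 with the zone at the 95th percentile, where Cmpk2 was at 0.21, and 2.39 against the whole opposite side. At 28 days it was 2.29 at the 95th percentile and 2.54 against the whole opposite side. A mirror line at the median array column of Gbx2 UMIs fell at 130 and 240, the boundary itself, so that mirror was identical. For 28 over 3 days the zone was at 0.13 with TMM scaling and -0.16 per bin, so its sign depends on the scale. The opposite side was at -0.41 per bin, with 2 genes 2-fold lower and Cmpk2 at -0.12.

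Hot tiles on the injured side at 3 days made 44.5% with a line of 2 times the median and 22.0% with 5 times, and on the opposite side 15.3% and 3.39%, or 11.0475% with tiles of 4 by 4 bins. At 28 days they made 36.5% and 16.5% on the injured side, and 11.2% and 1.79% on the opposite side, or 8.93% with tiles of 4 by 4 bins. Bins with at least 3 members made 1.53% and 0.250% of the sides at 3 days and 0.580% and 0.0790% at 28 days, with at least 5 members 0.236% and 0.0349%, then 0.0505% and 0.009%, and with the main minimum of 4 members, unthinned, 4.10% and 0.471%, then 1.28% and 0.180%.

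No paired analysis was possible because each group held 1 section. Precision is set by counts: Igtp in the 3-day zone, and Ifi204, Zbp1 and Ifi44 in mirrored areas, rest on 16 UMIs or fewer in the reference. Other members with few UMIs, such as Iigp1 and Oas2 at 28 days, have mirrored areas as thin.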
